A study of Mus musculus with 28 samples.

Results

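The comparison described here is that of day 1 against day 0 in macrophages sorted from the mouse pancreas during recovery from acute pancreatitis, the first step of recovery in animals that received no lactate. Its members are the 5 libraries labelled D0 and the 6 labelled D1 AP+PBS, 11 of the 28 libraries of the series. All of them came from wild-type C57BL/6J mice given caerulein to induce a recovery model of acute pancreatitis (AP), and the cells were isolated by fluorescence-activated cell sorting. The day 0 libraries carry no vehicle label and the day 1 libraries carry PBS, so the day and the vehicle cannot be told apart. The age and sex of the mice, the sort gate and the number of animals behind a library are not given. The p-values therefore measure only the spread between libraries. 3 libraries labelled NC, an abbreviation the labels do not explain, and 4 labelled D3 AP+PBS are used for reference levels only.

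Caerulein is an analogue of the gut hormone cholecystokinin that overstimulates the digestive enzyme-secreting acinar cells of the pancreas and causes a self-limiting inflammation. Monocytes then enter the tissue from the blood, drawn largely by ligands of the chemokine receptor Ccr2, and join the macrophages already resident there. During recovery such recruited cells are known to lose monocyte genes such as Ly6c2, to take up dead cells, and either to die or to acquire features of resident macrophages. RNA from sorted bulk cells is a mixture, and fewer cells of a type cannot be told apart from less RNA per cell.

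Expression was measured as FPKM, fragments scaled to the length of the transcript and to the fragments mapped in the library. The 11 libraries held 37796000 to 41060490 fragments, as recovered from the steps of the values. Most of the variance among them (73.1%) lay along a first principal component that separated the days, and a second (11.8%) set libraries 5 and 6 of day 1 apart from the other 4. Macrophage markers dominated at both times: their 12 genes summed to 13215 to 14973 FPKM at day 0 and 12136 to 20320.0 FPKM at day 1. Within the list 4 genes were called higher and 4 lower, 7 of all 12 without overlap between the days. The integrin chain Itgam (-1.57), the Fc receptor Fcgr1 (-2.27) and the lysosomal Cd68 (-0.77) had negative log2 fold changes past the threshold, and the growth factor receptor Csf1r (0.85) a positive one. Adgre1, which encodes the macrophage marker F4/80, was at 313 ± 41.4 FPKM (SD, n = 5) at day 0 and 364 ± 67.9 FPKM (SD, n = 6) at day 1, and it was not called (adjusted p = 0.4).

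RNA of other cell types also moved between the days. The 16 acinar markers summed to 444 to 855 FPKM at day 0. At day 1 they reached 4429 to 5693 FPKM in libraries 1 to 4, against 1250.0 FPKM in library 5 and 1043 FPKM in library 6. Fibroblast and stellate cell markers followed the same split in their sum. It was 8.67 to 20.5 FPKM at day 0, 165 to 321 FPKM in day 1 libraries 1 to 4, and 27.3 and 36.9 FPKM in libraries 5 and 6. Of these 10 markers 8 were called higher and 1 lower. The marker that fell did so without overlap, from 1.40 ± 0.24 to 0.352 ± 0.0737 FPKM. B and plasma cell markers summed to 22.9 to 77.1 FPKM at day 0 and 246 to 1432 FPKM at day 1. The sums for T and NK cells were 13.4 to 53.1 and 129.7 to 399 FPKM, and those for dendritic cells 30.9 to 98.97 and 133 to 256 FPKM. Neutrophil markers went the other way, from 369 to 878 FPKM at day 0 down to 69.4 to 227 FPKM at day 1. Endothelial, ductal and islet markers summed to at most 27.96, 47.8 and 1.84 FPKM in any of the 11 libraries.

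**Figure D1:**
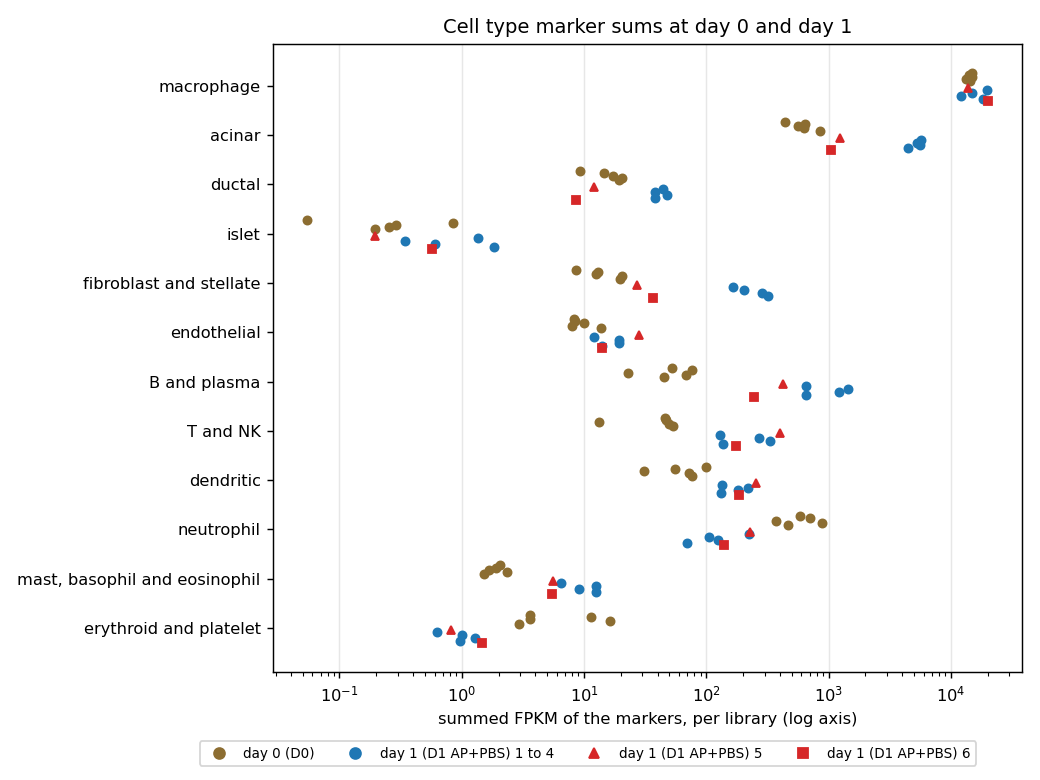
Summed FPKM of the markers of each cell type in each library (log axis), day 0 above and day 1 below the line of each name. Macrophage markers lie near or above 12136 FPKM throughout, the acinar and fibroblast sums of day 1 libraries 5 and 6 lie apart from those of libraries 1 to 4, and B, T and dendritic cell sums are higher at day 1 while the neutrophil sum is lower.

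Day 1 differed from day 0 across most of the transcriptome. Of 11960 genes tested with limma on log2(FPKM + 1), 7521 (62.9%) were called at an adjusted p under 0.05, 5147 (43.0%) higher and 2374 (19.8%) lower at day 1. The FPKM of the groups did not overlap at all for 44.2% of genes, higher at day 1 for 31.7% and lower for 12.5%. The balance of the directions followed the scaling: the median log2 fold change over every gene tested was 0.19 as deposited, -0.05 after quantile normalization and 0.02 after median-ratio scaling, and the calls were then 2835 higher and 3666 lower, and 3918 higher and 3808 lower. A log2 fold change of at least 1 was reached by 1282 called genes, and one of -1 or less by 406. The counts of gene lists below are to be read against these shares and this median, since a list with 43.0% of its members higher and 19.8% lower is at the level of all genes. The counts of several lists moved with the scaling. Under median-ratio scaling the lower calls went from 5 to 12 in the citrate cycle, from 18 to 29 in the respiratory chain, from 6 to 10 in the hypoxia response, from 7 to 11 in heat shock and from 9 to 15 in transcription factors.

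The count also moved when the marker level of other cells was added to the fit. With the mean log2 level of the acinar markers of a library as a covariate 4999 genes were called, 3168 higher and 1831 lower. With that of the B, plasma, T and NK cell markers 4869 were called, 1988 higher and 2881 lower. Of the named genes called with or without this covariate, 23 changed sign. Lck, Pou2af1 and Jchain were among these and are markers that make up the covariate. The others included Ccr2, Ifitm3, F13a1, Ctss, Ctsd, Fcgr4, Lgals9, Il18, Fth1, Isg15, Irf7, Pcna, Phgdh and Scd1. A further 47 named genes kept their sign and lost the call in that fit, among them Arg2, Spp1, Slfn4, Chil3, Ly6c2, Ccl5, Ccl7, Ccl12, Fcgr1, Ctsl, Cdkn1a, Spi1, Irf5, Rrm2, Mcm7 and Rps4x, and 26 did in the acinar fit, among them Ccr2, Cxcr2, Ly6c2, Ifitm3, Isg15, Slfn1, Oas1a and Stab1. Cd79a, Ms4a1 and Mzb1, which are among the 47, also make up the lymphocyte covariate. The acinar sum of every day 1 library (1043 FPKM or more) was above that of every day 0 library (855 FPKM or less). The B and plasma cell and the T and NK cell sums were separated in the same way. Each covariate thus moved with the day, and these fits cannot fully separate them. Whether RNA of other cells caused the lost calls and changed signs was not tested. Without day 1 libraries 5 and 6, 7525 genes were called, 5180 higher and 2345 lower.

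**Figure D2:**
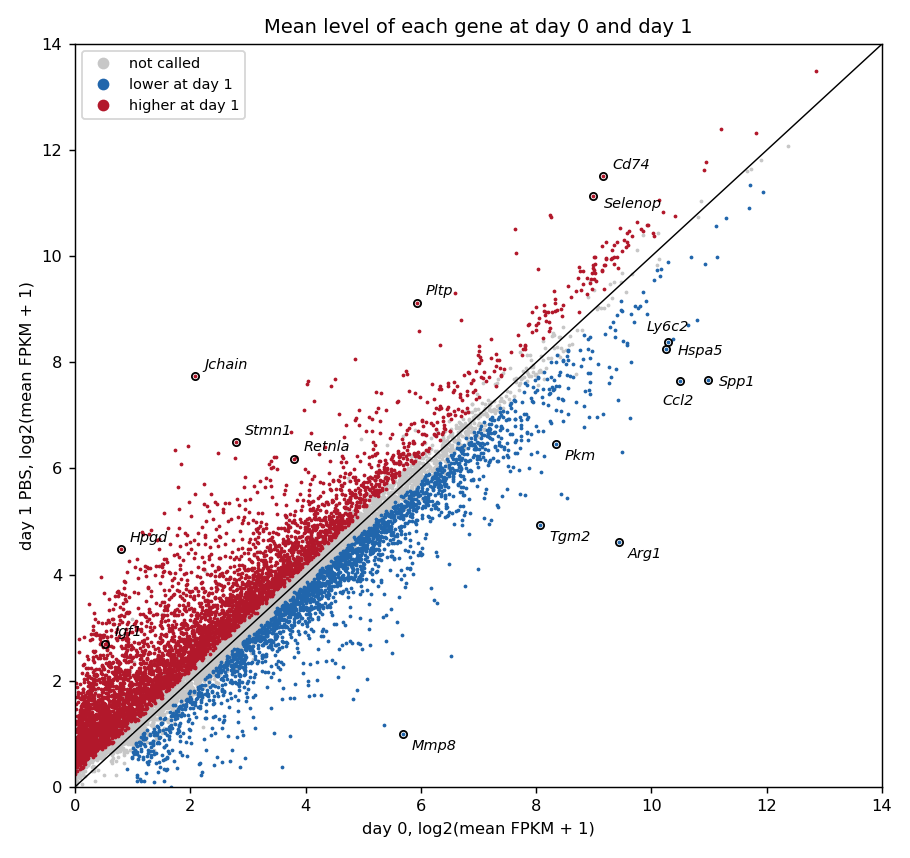
Mean FPKM of each tested gene at day 0 (horizontal) and day 1 (vertical), both as log2(mean + 1), with the line of equality and the calls in colour. Arg1, Mmp8, Spp1 and Tgm2 lie far below the line, and Hpgd, Pltp, Jchain and Stmn1 far above it.

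Of all genes called, Arg1 had the lowest log2 fold change on the log2(FPKM + 1) scale. It encodes the arginase that turns arginine into ornithine and urea and is a common marker of macrophages in injured tissue. Its FPKM in day 0 libraries 1 to 5 were 974, 832, 625, 669 and 351, and at day 1 they ran from 14.02 to 44.3 (median 19.96). The mean was 29.4-fold lower at day 1 and the log2 fold change was -4.84 ± 0.65 (SE, adjusted p = 8.3e-07). Every day 1 library was far below the lowest day 0 library, and library 5 was the lowest of day 1. Spp1, encoding the secreted matrix protein osteopontin, had day 0 values of 2827, 1888, 2715, 1394 and 1252 FPKM and day 1 values from 91.2 to 295 (median 224) FPKM (log2 fold change -3.34 ± 0.43, adjusted p = 5.6e-07). Here too the groups did not overlap. Tgm2, the crosslinking enzyme transglutaminase 2, fell from 268 ± 83.1 to 29.5 ± 14.7 FPKM (log2 fold change -3.19 ± 0.38, adjusted p = 1.7e-07).

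Several of the other strongest decreases were in genes of granulocytes and early inflammation. Mmp8, neutrophil collagenase, fell from 50.3 ± 16.8 to 1.004 ± 0.745 FPKM, and Lcn2, a lipocalin that binds iron carriers of bacteria, from 91.1 ± 19.4 to 4.51 ± 2.29 FPKM. These are neutrophil markers as well, and of the 11 neutrophil markers tested 7 were lower and none higher (median log2 fold change -1.01). The zinc and iron importer Slc39a14 had the smallest p of all genes named here, with 21.4, 31.6, 25.1, 31.2 and 26.3 FPKM at day 0 and values from 1.65 to 2.62 (median 2.09) FPKM at day 1 (log2 fold change -3.15 ± 0.14, adjusted p = 5.2e-15). Pdpn, encoding the membrane glycoprotein podoplanin, Lrg1, a secreted leucine-rich glycoprotein, Tarm1, an activating myeloid receptor, and Dmkn had log2 fold changes of -3.09, -2.95, -3.47 and -3.15. Slfn4 and Ly6a2 had -4.28 and -3.92. They belong to the Schlafen and Ly6 families of closely related genes, as does Ly6c2 below, and the Reg, Oas and H2 genes have close relatives too. How fragments shared by such copies were counted is not given, so these values are uncertain.

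Among the largest increases, plasma and B cell genes led. Jchain, the joining chain of secreted antibodies, was at 2.55 to 4.09 FPKM at day 0 and at 261, 255, 540.4 and 197 FPKM in day 1 libraries 1 to 4, against 9.84 and 12.7 FPKM in libraries 5 and 6. Mzb1 and Pou2af1, which serve antibody folding and B cell transcription, had log2 fold changes of 4.11 and 3.91, and Ms4a1, which encodes CD20, had 3.35. Pancreatic exocrine genes followed, with the ribonuclease Rnase1 at 4.14, the lipase-related Pnliprp1 at 3.37 and the injury lectins Reg3b, Reg1 and Reg2 at 3.42, 3.02 and 2.93. Both sets are products of cells other than macrophages, whose marker sums are given above. Lymphocyte genes also stood among the abundant genes that rose most, with Ptprcap at 2.95 and the GTPases Gimap4 and Gimap6 at 2.77 and 2.77. The other large increases were in cell cycle genes (Stmn1 at 3.65, Ccnb2 at 3.44 and Pclaf at 3.42), in genes of resident macrophages (Hpgd at 3.61 and Pltp at 3.13), in Igfbp4, a binding protein of insulin-like growth factors (3.63), in the secreted glycoprotein gene Dmbt1 (3.52) and in Chp2 (3.44).

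Genes of the inflammatory monocyte were lower without exception. All 19 tested members of the list were called lower, with a median log2 fold change of -1.95, and 15 of them did not overlap between the days. Ly6c2, which encodes the surface antigen that defines such monocytes in the mouse, was at 1408, 953, 1326, 1264 and 1307 FPKM at day 0. In day 1 libraries 1 to 4 it was at 56.3, 92.1, 111 and 79.5 FPKM, but library 6 had 309.7 and library 5 had 1352 FPKM, the second highest value of all 11 libraries. Its log2 fold change was -2.91 ± 0.56 (adjusted p = 9.2e-05), and -3.90 without libraries 5 and 6. Hp, the hemoglobin-binding haptoglobin, fell from 342 ± 71.8 to 44.6 ± 29.4 FPKM and the matrix proteoglycan Vcan from 39.9 ± 16.4 to 1.23 ± 0.952 FPKM, and in both genes library 5 was the highest of day 1. Chil3, a chitinase-like lectin of myeloid cells, had 1239.8, 1706, 1909, 1779.8 and 1262 FPKM at day 0 and from 261 to 532 (median 421) at day 1, and Fn1, fibronectin, 421, 673, 609.5, 532 and 422 and from 65.6 to 173 (median 143). For both genes the days did not overlap. The antiviral membrane protein gene Ifitm3 and Msrb1, a methionine sulfoxide reductase, had log2 fold changes of -1.22 and -1.29. The same 19 genes were called lower without libraries 5 and 6. With the acinar or the lymphocyte marker level of a library as a covariate the lower calls were 13 and 6, with none higher in either fit.

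The ligands that attract monocytes moved with them. Ccl2, the principal ligand of Ccr2, had 1439, 1402, 1208, 1597 and 1603 FPKM at day 0 and values from 130.2 to 282 (median 203) FPKM at day 1 (log2 fold change -2.91 ± 0.29, adjusted p = 1.2e-08), and the groups were far apart. Ccl7 and Ccl12, further Ccr2 ligands, fell from 788 ± 54.3 to 122 ± 38.3 and from 368 ± 96.6 to 42.2 ± 18.8 FPKM. Among all 20 chemokines tested, 4 were higher and 6 lower (median log2 fold change -0.20). After quantile normalization 3 were higher and 8 lower. The T cell attractant Ccl5 was higher at day 1 (53.01 ± 23.1 and 219 ± 192 FPKM, log2 fold change 1.87 ± 0.35, adjusted p = 7e-05). Its highest value, 603 FPKM, was in library 5, where the T and NK cell marker sum was also highest (399 FPKM). With the lymphocyte covariate Ccl5 was no longer called. Cxcl10, induced by interferon and named after its values were seen, had 103, 27.5, 317, 63.6 and 111 FPKM at day 0 and 14.4, 15.6, 29.5, 21.9, 550.3 and 133 FPKM in day 1 libraries 1 to 6, so that the day 1 libraries fell on both sides of day 0 and the gene was not called (adjusted p = 0.29). Without library 5 it was lower, with a log2 fold change of -1.63 (adjusted p = 0.0308).

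Of the receptors, Ccr2 fell less than its ligands, from 436 ± 46.3 to 243 ± 58.9 FPKM (log2 fold change -0.87 ± 0.19, adjusted p = 0.00043), although the days did not overlap. Ccr1, a receptor for inflammatory CC chemokines, fell from 224 ± 28.5 to 44.02 ± 15.7 FPKM, and Cxcr2, a neutrophil receptor, from 15.4 ± 6.39 to 2.96 ± 2.18 FPKM. Cxcr4, a receptor that retains cells in tissue, rose from 31.9 ± 7.61 to 103 ± 15.7 FPKM (log2 fold change 1.68 ± 0.16, adjusted p = 4e-09). Ccr7, which guides dendritic cells to lymph nodes and is on the dendritic marker list, rose from 23.8 ± 10.9 to 74.6 ± 46.3 FPKM with overlapping ranges. Cx3cr1, the fractalkine receptor of patrolling monocytes and many tissue macrophages, was at 51.3 ± 15.9 and 56.6 ± 7.87 FPKM and was not called (adjusted p = 0.49).

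Genes of resident macrophages rose. Of the 22 tested, 18 were higher and 2 lower, with a median log2 fold change of 1.24. Hpgd, which inactivates prostaglandins, was at 0.602, 0.924, 0.585, 0.744 and 0.794 FPKM at day 0 and from 9.13 to 27.99 (median 23.5) at day 1 (log2 fold change 3.61 ± 0.24, adjusted p = 1.5e-11), with library 5 the lowest of day 1 and still above all of day 0. Pltp, a phospholipid transfer protein, had 74.9, 56.5, 54.4, 55.04 and 58.1 FPKM at day 0 and from 279 to 774 (median 589) at day 1, and the selenium carrier Selenop 419.7, 541, 568, 431 and 563 and from 1604 to 3248 (median 2074). Both genes were separated between the days in every library. Igf1, the insulin-like growth factor that macrophages supply to regenerating tissue, rose from 0.441 ± 0.169 to 5.49 ± 2.63 FPKM and the ficolin gene Fcna from 3.05 ± 1.31 to 33.4 ± 11.96 FPKM. The lipid-binding receptor Timd4, which marks long-lived resident cells, rose from 0.434 ± 0.184 to 3.29 ± 1.67 FPKM, the folate receptor Folr2 from 128 ± 19.8 to 254 ± 78.6 FPKM, and the hyaluronan receptor Lyve1 from 9.36 ± 4.85 to 16.1 ± 6.51 FPKM, the last with overlapping ranges and an adjusted p of 0.049. Lyve1 was no longer called without any 1 of day 0 libraries 1, 4 or 5 or day 1 libraries 1, 2, 3, 4 or 6 (adjusted p 0.06 to 0.135). F13a1, coagulation factor XIII, was among the members that fell, with a log2 fold change of -0.53. F13a1 was no longer called without any 1 of day 0 libraries 2, 3, 4 or 5 or day 1 libraries 2, 3, 5 or 6 (adjusted p 0.0518 to 0.136). Csf1r, which binds the macrophage growth factor M-CSF, rose from 318 ± 14.6 to 582 ± 110.0 FPKM (log2 fold change 0.85 ± 0.16, adjusted p = 8.6e-05). The median shift of the list from its day 0 mean was 1.84, 1.31, 1.55 and 1.66 in day 1 libraries 1 to 4, and 0.43 and 1.09 in libraries 5 and 6, the libraries whose acinar and fibroblast marker sums were also the lowest of day 1. With the lymphocyte markers as a covariate 15 members of the resident list were higher and none lower, and with the acinar markers as one 12 were higher and 1 lower.

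**Figure D3:**
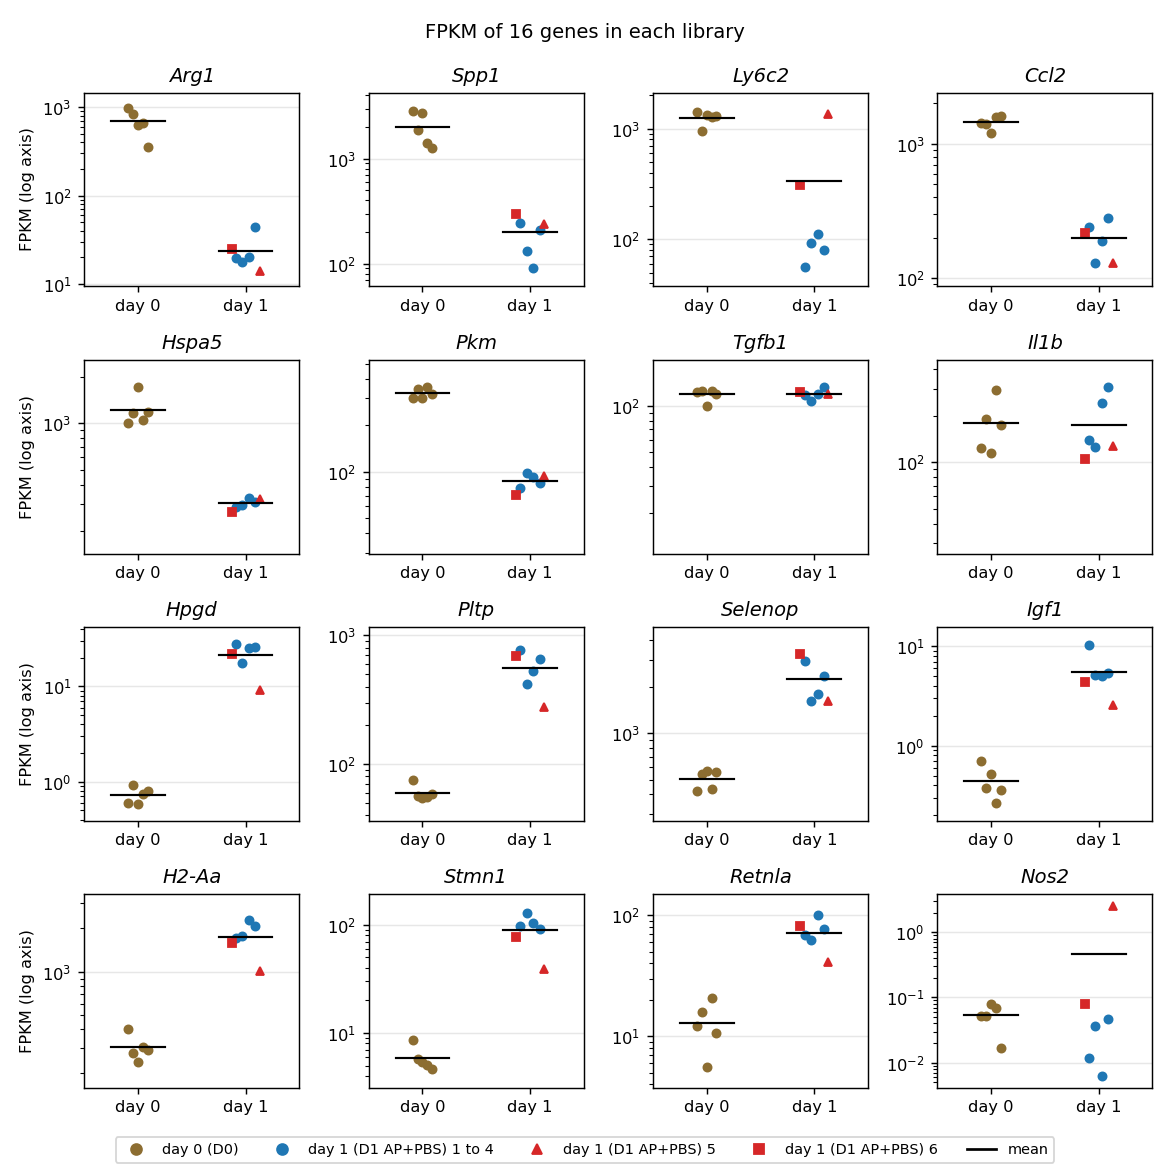
FPKM of 16 genes in each library (log axis, with a scale of its own for each gene), with day 0 on the left, day 1 on the right and black lines at the group means. Arg1, Spp1, Ccl2, Hspa5 and Pkm do not overlap and are lower at day 1, Hpgd, Pltp, Selenop, Igf1, H2-Aa, Stmn1 and Retnla do not overlap and are higher, and Ly6c2 and Nos2 have their highest day 1 value in library 5.

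Genes read as markers of alternative activation, the state induced by interleukin 4, did not move as 1 group. 11 of 18 were higher and 4 lower. Arg1, Chil3, Tgm2 and the receptor Il4ra were the members that fell, Il4ra from 207 ± 47.7 to 61.9 ± 4.85 FPKM. Retnla, a secreted resistin-like protein, rose from 12.98 ± 5.58 to 71.7 ± 19.7 FPKM (log2 fold change 2.43 ± 0.32, adjusted p = 7.3e-07), the mannose receptor Mrc1 from 112 ± 48.1 to 224 ± 69.9 FPKM with overlapping ranges, and the galactose lectin Mgl2 from 1.03 ± 0.177 to 7.34 ± 3.05 FPKM. Cd209a, a lectin of monocyte-derived and dendritic cells, rose from 3.23 ± 1.23 to 44.6 ± 18.5 FPKM, and it is also on the dendritic marker list, of which 9 of 10 were higher. In NC, Retnla was at 2623 ± 674 FPKM, well above its level at day 0 or day 1. In the list for arginine and polyamine metabolism 6 of 14 genes were lower, among them Arg2, the mitochondrial arginase (4.96 ± 1.30 and 1.52 ± 0.821 FPKM), and Azin1, which spares ornithine decarboxylase from its inhibitor (19.1 ± 0.666 and 12.2 ± 2.35 FPKM). 2 were higher, one of them Oaz1, which encodes that inhibitor (log2 fold change 0.33); under median-ratio scaling none was. Nos2, the inducible nitric oxide synthase that competes for arginine, was at 0.0170 to 0.0799 FPKM at day 0 and at 0.0118, 0.0363, 0.00616, 0.0475 and 0.0794 FPKM in day 1 libraries 1 to 4 and 6, against 2.56 FPKM in library 5 (adjusted p = 0.68).

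Genes of antigen presentation by MHC class II rose together. 10 of 12 genes were higher and 1 was lower, the median log2 fold change was 2.39, and all 10 that rose were separated between the days. Ciita, the master transcriptional activator of class II genes, had 3.29, 3.58, 3.23, 3.28 and 3.58 FPKM at day 0 and from 13.7 to 30.8 (median 22.95) at day 1 (log2 fold change 2.39 ± 0.20, adjusted p = 4.1e-10). The alpha chain H2-Aa had 402, 276, 237, 304 and 289 FPKM at day 0 and from 1014 to 2303 (median 1752) at day 1, and the invariant chain Cd74, which guards the groove during transport, 739, 493, 530.0, 526 and 561 and from 1858 to 3883 (median 2815). In each of these genes the lowest day 1 value was above the highest day 0 value, and for H2-Aa and Cd74 it was that of library 5. The beta chains H2-Ab1 and H2-Eb1 had log2 fold changes of 2.44 and 2.39. The peptide-loading chaperone genes H2-DMa, H2-DMb1 and H2-DMb2 had 1.40, 1.67 and 2.73, and the subunits of their modulator, H2-Oa and H2-Ob, 2.46 and 3.07. Ctss, the protease that trims the invariant chain, was the member that fell (-0.63 ± 0.23, adjusted p = 0.021), and the thiol reductase gene Ifi30 was not called (adjusted p = 0.49). Ctss was no longer called without any 1 of day 0 library 1 or day 1 libraries 2 or 3 (adjusted p 0.0504 to 0.063).

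B cells and dendritic cells also express these genes. Their marker sums, given above, were higher at day 1 than at day 0 in every library. Cd79a, a chain of the B cell receptor, rose from 16.7 ± 8.63 to 153 ± 67.9 FPKM, while H2-Aa rose from 301 ± 61.5 to 1744 ± 442 FPKM. With the level of B, plasma, T and NK cell markers as a covariate, 10 of the class II genes were called higher, H2-DMb2 not among them and Ctss among them, with a median log2 fold change of 1.18. The part of dendritic cells was not tested. Beside the class II genes, Cd83 and the costimulatory ligand Cd86 rose from 16.01 ± 5.38 to 101 ± 40.4 FPKM and from 9.38 ± 0.695 to 24.6 ± 4.96 FPKM, and the galectin Lgals9, a ligand of the checkpoint receptor Havcr2, fell from 324 ± 66.6 to 137 ± 50.8 FPKM. Of 15 costimulation and checkpoint genes 4 were higher and 3 lower. Few genes of the MHC class I pathway were called: B2m, the shared light chain, was at 3380.5 ± 421 and 3189 ± 1261 FPKM, H2-D1 at 1849 ± 238 and 2096 ± 415 FPKM, and 4 of 19 genes were higher and 1 lower, or 1 and 6 without libraries 5 and 6. B2m was then called lower, at -0.48 (adjusted p = 0.0135).

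**Figure D4:**
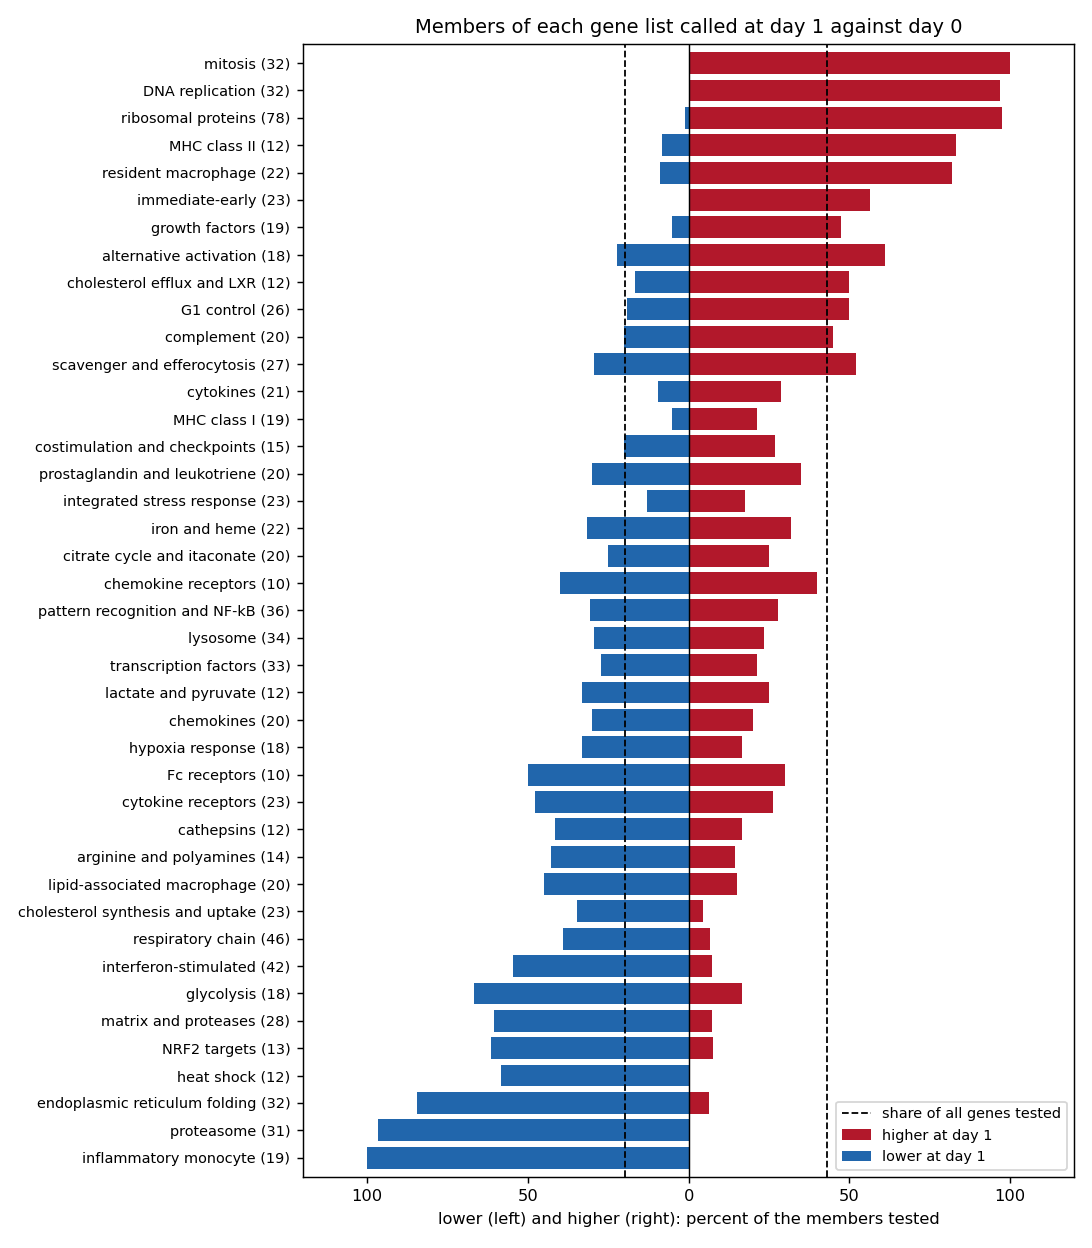
Share of the tested members of each gene list that were called higher (right) or lower (left) at day 1, with the number tested in parentheses. Dashed lines mark the shares of all genes, 43.0% higher and 19.8% lower, so bars that end near them do not stand out from the transcriptome.

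Cell division genes rose as a block. All 32 mitosis genes tested were higher, with a median log2 fold change of 2.67, and in all 32 the lowest day 1 library was above the highest day 0 library. Stmn1, a microtubule-destabilizing phosphoprotein, was at 8.70, 5.78, 5.39, 5.03 and 4.67 FPKM at day 0 and from 39.2 to 128 (median 94.7) at day 1 (log2 fold change 3.65 ± 0.24, adjusted p = 1.5e-11). The centromeric histone Cenpa rose from 4.35 ± 0.732 to 40.3 ± 13.96 FPKM, the kinetochore gene Ndc80 from 0.876 ± 0.232 to 8.86 ± 2.61 FPKM and the cytokinesis regulator Racgap1 from 2.14 ± 0.422 to 22.7 ± 8.15 FPKM. Median shifts of the mitosis genes from their day 0 mean were 2.85, 3.47, 3.195 and 2.70 in day 1 libraries 1 to 4, and 1.67 and 2.19 in libraries 5 and 6. In DNA replication 31 of 32 genes were higher and none lower. Rrm2, the regulated subunit of ribonucleotide reductase, rose from 1.75 ± 0.325 to 24.3 ± 13.9 FPKM, thymidine kinase Tk1 from 1.12 ± 0.524 to 14.3 ± 5.92 FPKM and the helicase subunit Mcm7 from 4.44 ± 0.242 to 27.9 ± 12.1 FPKM. Pcna, the polymerase clamp, was already high at day 0 and rose from 90.1 ± 5.21 to 130.1 ± 27.2 FPKM. Pcna was no longer called without any 1 of day 1 libraries 2 or 3 (adjusted p 0.0514 to 0.0542).

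Regulators of the G1 phase were divided. Ccnd1, cyclin D1, fell from 56.2 ± 14.1 to 17.5 ± 3.89 FPKM, and so did Cdkn1a, the p21 inhibitor of cyclin-dependent kinases, from 412 ± 60.6 to 152 ± 33.1 FPKM. The related inhibitors Cdkn1b (p27) and Cdkn2c (p18) rose from 13.97 ± 1.80 to 44.96 ± 4.84 FPKM and from 1.40 ± 0.193 to 12.6 ± 4.24 FPKM. Over the list 13 of 26 were higher and 5 lower (50% and 19.2%, close to the 43.0% and 19.8% of all genes). Cytosolic ribosomal protein genes rose almost as a whole, 76 of 78 higher and 1 lower, by a median log2 fold change of 0.67. Rps4x rose from 432 ± 36.6 to 843 ± 69.2 FPKM and Rplp1 from 1115 ± 230.5 to 2126 ± 315 FPKM.

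Dividing lymphocytes and plasma cells express both sets as well, and their markers rose in the same libraries. Lck, a T cell kinase, rose from 7.20 ± 3.21 to 41.9 ± 16.95 FPKM and the B cell marker Cd79a rose as given above. With the lymphocyte markers as a covariate 16 of 32 mitosis genes remained higher, 1 of 32 replication genes was higher and 3 were lower, and 0 of 78 ribosomal protein genes were higher and 3 lower. With the acinar covariate the higher calls were 32, 19 and 29. The acinar, the B and plasma cell and the T and NK cell sums of every day 1 library were above those of every day 0 library. Each covariate and the day thus move together.

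Genes for protein folding in the endoplasmic reticulum fell together. Of 32 tested, 27 were lower and 2 higher, with a median log2 fold change of -0.90, and 25 of the lower ones did not overlap between the days. These chaperones are induced in the unfolded protein response, in part through a promoter element named ERSE, which reads CCAAT, 9 bases of any kind, then CCACG. The element was searched on both strands of RefSeq promoters (mouse build GRCm38.p6, 250 bases before to 50 after each start). Of the 32 genes 26 matched a promoter and 9 of these held the element, as did 9 of their 27 promoters (33.3%) against 39 of 32851 promoters of all genes (0.119%). The 170 bases before the start are shown for the 4 of these genes with the smallest p. Whether the element had a part in the fall of their RNA was not tested. Capitals mark the element, which in Calr lies on the opposite strand and is read there as its reverse complement.
Calr, chr8:84846932-84847101, minus strand: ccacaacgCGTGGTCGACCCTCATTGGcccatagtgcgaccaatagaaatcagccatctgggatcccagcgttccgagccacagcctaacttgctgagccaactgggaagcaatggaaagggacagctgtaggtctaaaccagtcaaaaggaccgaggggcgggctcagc
Pdia6, chr12:17266419-17266588, plus strand: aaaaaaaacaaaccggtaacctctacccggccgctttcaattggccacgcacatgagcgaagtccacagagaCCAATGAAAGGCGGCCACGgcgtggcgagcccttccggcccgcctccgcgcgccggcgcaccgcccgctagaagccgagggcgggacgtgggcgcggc
Hspa5, chr2:34771920-34772089, plus strand: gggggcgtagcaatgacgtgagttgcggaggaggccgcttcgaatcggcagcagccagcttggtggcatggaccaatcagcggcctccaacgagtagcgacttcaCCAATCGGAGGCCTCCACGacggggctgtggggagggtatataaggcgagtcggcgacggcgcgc
Canx, chr11:50325674-50325843, minus strand: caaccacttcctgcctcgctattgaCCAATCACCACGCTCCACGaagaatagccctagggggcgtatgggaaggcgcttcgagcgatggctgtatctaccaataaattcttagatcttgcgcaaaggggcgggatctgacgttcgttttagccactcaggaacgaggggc

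Hspa5, encoding the chaperone BiP that senses unfolded protein, had 1005, 1165, 1716, 1055 and 1174 FPKM at day 0 and from 268 to 327 (median 303) at day 1 (log2 fold change -1.99 ± 0.15, adjusted p = 1.2e-10). The calcium-binding lectin chaperone Calr had 1188, 1305, 1636, 1239.7 and 1276 and from 304 to 400.5 (median 339) FPKM, and the disulfide isomerase Pdia6 377, 440.1, 555, 444 and 453 and from 92.4 to 129 (median 109). All 3 genes were lower in each day 1 library than in any day 0 library, with day 0 library 3 the highest of all, and the day 1 values differed little among themselves. Canx, calnexin, the membrane-bound partner of calreticulin, fell from 213 ± 22.6 to 111 ± 2.99 FPKM, and the co-chaperone Dnajb11 from 114 ± 17.7 to 34.6 ± 3.80 FPKM. Xbp1, the transcription factor that drives the response, fell from 173 ± 19.03 to 83.4 ± 12.2 FPKM (log2 fold change -1.05 ± 0.15, adjusted p = 1.4e-06). Of the 9 genes holding the element, Hsp90b1, Dnajc3 and Creld2 also fell (-1.26, -1.01 and -2.11), Ero1b rose (0.44) and Syvn1 was not called (-0.34). Plasma and acinar cells also express these chaperones. With the acinar and the lymphocyte covariate 26 and 25 members were lower and none higher.

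**Figure D5:**
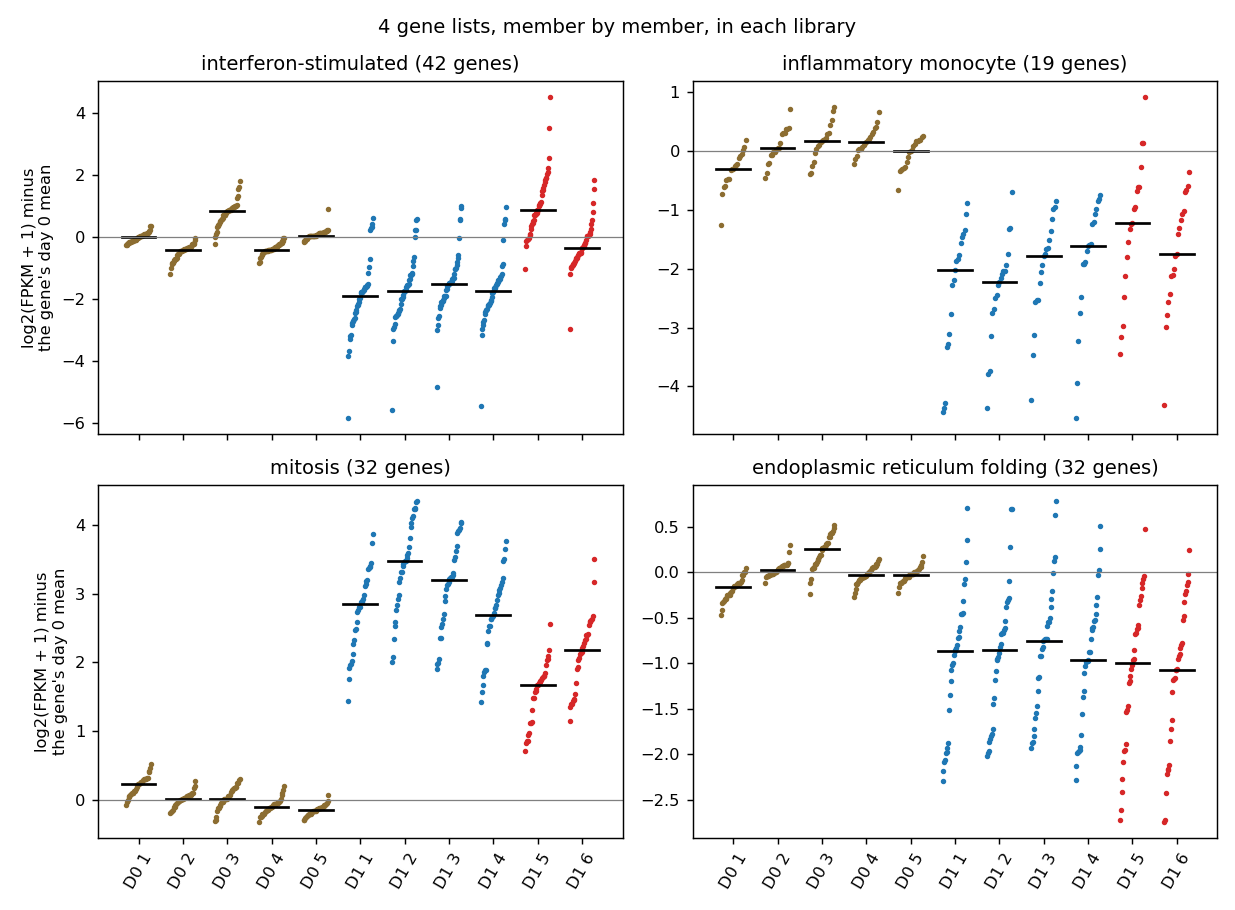
For 4 gene lists, each member's log2(FPKM + 1) minus its own day 0 mean in each library (points), with the median of the list as a black line and day 1 libraries 5 and 6 in red. Mitosis genes lie above 0 in every day 1 library and folding genes mostly below 0, whereas interferon-stimulated genes have a median of 0.88 in library 5 against -1.89 to -1.51 in libraries 1 to 4.

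Other parts of protein quality control fell in the same direction. Of 31 genes of the constitutive proteasome, which degrades ubiquitin-tagged proteins, 30 were lower and none higher (median log2 fold change -0.63), 27 of them without overlap. The core subunit Psma6 fell from 212 ± 17.3 to 107 ± 14.3 FPKM and the ATPase subunit Psmc1 from 163 ± 12.2 to 86.3 ± 4.29 FPKM. Heat shock genes were lower in 7 of 12, among them the constitutive chaperone Hspa8 (2233 ± 294 and 1524 ± 172 FPKM), Hsp90aa1 (-0.84), the nucleotide exchange factor Hsph1 (-1.29), the inducible Hspa1b (-1.42) and the cochaperones Dnaja1 (-0.97) and Bag3 (-0.91). Targets of the integrated stress response split, with 4 higher and 3 lower of 23. Ppp1r15a, which restarts translation after stress, rose from 37.1 ± 15.4 to 140.4 ± 47.8 FPKM and the serine synthesis enzyme Phgdh from 2.52 ± 0.845 to 22.3 ± 12.3 FPKM, while the amino acid transporter subunit Slc3a2 and the stress-induced Sesn2 each fell by 1.02 on the log2 scale. Ddit3, the CHOP factor of terminal endoplasmic reticulum stress, was at 10.4 ± 1.90 and 9.99 ± 2.41 FPKM and was not called (adjusted p = 0.74).

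Glycolytic genes were lower at day 1. 12 of 18 were lower and 3 higher, the median log2 fold change being -0.74. Pkm, pyruvate kinase, had 301, 343, 302, 355 and 319 FPKM at day 0 and from 70.6 to 98.9 (median 89.2) at day 1 (log2 fold change -1.89 ± 0.18, adjusted p = 3.7e-09), and no library of one day came near the other. Enolase (Eno1) fell from 614 ± 42.6 to 239 ± 21.1 FPKM and hexokinase 2 (Hk2) from 26.5 ± 2.42 to 12.4 ± 0.924 FPKM, while Pfkm, the muscle form of phosphofructokinase, rose from a low level, 1.41 ± 0.132 to 3.80 ± 0.718 FPKM. Hif1a, the oxygen-regulated factor that induces many of these genes, fell from 98.7 ± 11.3 to 36.3 ± 6.76 FPKM (log2 fold change -1.43 ± 0.15, adjusted p = 3.3e-08). The wider hypoxia response list, which includes Hif1a itself, was mixed, with 6 of 18 lower and 3 higher. P4ha1, which hydroxylates collagen, fell from 48.4 ± 2.30 to 18.9 ± 3.16 FPKM and the histone demethylase Kdm3a rose from 6.70 ± 0.646 to 11.4 ± 1.30 FPKM.

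Of the genes that handle lactate, the exporter fell and the dehydrogenase subunits moved in opposite directions. Slc16a3, the monocarboxylate transporter MCT4 of glycolytic cells, had 33.2, 46.8, 30.01, 52.8 and 41.6 FPKM at day 0 and from 5.07 to 10.9 (median 8.91) at day 1 (log2 fold change -2.16 ± 0.27, adjusted p = 2.8e-07), without overlap. Ldha, the lactate dehydrogenase subunit that favours lactate formation, fell from 114 ± 9.26 to 70.4 ± 8.03 FPKM (log2 fold change -0.69 ± 0.16, adjusted p = 0.00067), and Ldhb, the subunit that favours its oxidation, rose from 3.73 ± 1.44 to 8.53 ± 2.76 FPKM with overlapping ranges. Pdk2, a kinase that closes pyruvate entry into mitochondria, rose from 0.874 ± 0.139 to 6.27 ± 1.94 FPKM. Over the 12 genes of lactate and pyruvate 3 were higher and 4 lower. In the citrate cycle 5 were higher and 5 lower of 20, with the dehydrogenase subunit Idh3g at 0.73, fumarase Fh1 at 0.73 and mitochondrial malate dehydrogenase Mdh2 at -0.82. Subunits of the respiratory chain were lower in 18 and higher in 3 of 46, led by cytochrome c (Cycs, -1.18), with a median log2 fold change of -0.14, and without libraries 5 and 6 the counts were 9 and 5. Acod1, which makes itaconate in inflammatory macrophages, had 7.07, 6.47, 10.8, 6.24 and 6.67 FPKM at day 0 and 0.775, 1.10, 3.79, 2.15, 36.6 and 4.46 FPKM in day 1 libraries 1 to 6. It was not called (adjusted p = 0.32), and library 5 alone was above day 0. Without library 5 it was lower, at -1.40 (adjusted p = 0.0464).

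Classical inflammatory cytokines, in contrast to the monocyte genes, showed no common direction. Il1b had 123, 190.1, 115, 293 and 173 FPKM at day 0 and from 105 to 307 (median 133) at day 1 (log2 fold change -0.07 ± 0.34, adjusted p = 0.87), and the ranges overlapped almost fully. Tnf was at 26.7 ± 4.78 and 24.3 ± 11.9 FPKM (adjusted p = 0.45). Tgfb1, the repair and fibrosis factor, was at 118 ± 10.95 and 119 ± 8.03 FPKM, with a log2 fold change of 0.01 ± 0.09 (adjusted p = 0.91). Il10, the anti-inflammatory cytokine, rose from 5.45 ± 1.46 to 10.8 ± 4.40 FPKM (log2 fold change 0.80 ± 0.32, adjusted p = 0.034), but library 5, at 3.95 FPKM, was just below the lowest day 0 library. Il10 was no longer called without any 1 of day 0 libraries 1, 2 or 5 or day 1 libraries 1, 3 or 4 (adjusted p 0.0515 to 0.082). Osm, oncostatin M, was the cytokine with the larger decrease of the 2 that fell, from 108 ± 26.7 to 35.2 ± 8.91 FPKM, the other being Il18 (-0.78), and Ebi3, a subunit shared by interleukins 27 and 35, rose from 13.4 ± 2.49 to 26.9 ± 4.03 FPKM. Altogether 6 of 21 cytokines were higher and 2 lower.

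Receptors of cytokines were divided as well, 11 of 23 lower and 6 higher. The decoy receptor Il1r2 fell from 15.5 ± 6.02 to 2.80 ± 1.06 FPKM and the coreceptor Il1rap from 2.96 ± 0.549 to 1.10 ± 0.243 FPKM, while Ifngr1, a chain of the interferon gamma receptor, rose from 130.2 ± 17.8 to 211 ± 30.3 FPKM. Pattern recognition genes moved both ways, 10 higher and 11 lower of 36. Tlr1 fell from 59.3 ± 5.50 to 30.05 ± 7.24 FPKM and the inflammasome adaptor Pycard from 92.2 ± 14.9 to 34.5 ± 2.79 FPKM, and the fungal glucan receptor Clec7a rose from 35.9 ± 4.67 to 85.5 ± 18.5 FPKM. Cd14, the coreceptor for lipopolysaccharide, was not called (313 ± 96.2 and 373 ± 133 FPKM, adjusted p = 0.49). Immediate-early genes, which respond within minutes to growth factors, stress and tissue dissociation, were higher in 13 of 23 and lower in none. The share of 56.5% higher stands against 43.0% of all genes. No more than 2 of the 23 were higher without overlap, where 31.7% of all genes were. Under median-ratio scaling 9 were higher. Egr1 had 80.5, 89.2, 78.9, 150.4 and 116 FPKM at day 0 and from 131 to 693 (median 466) at day 1, its lowest day 1 value, in library 5, lying within day 0. Egr3 rose from 0.862 ± 0.321 to 7.42 ± 2.58 FPKM without overlap, Jund rose from 53.1 ± 9.96 to 104 ± 19.6 FPKM, and Fos was already at 1111 ± 196 FPKM at day 0 and was not called (adjusted p = 0.15), although without day 1 library 5 it was higher, at 0.43 (adjusted p = 0.0108).

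Interferon-stimulated genes were lower in most day 1 libraries but not in all, and of the 4 lists plotted by library their median varied most among the day 1 libraries. 23 of 42 were called lower and 3 higher, with a median log2 fold change of -1.11, yet no more than 2 of the 42 did not overlap between the days. The median shift of the list from its day 0 mean was -1.89, -1.72, -1.51 and -1.73 in day 1 libraries 1 to 4, 0.88 in library 5 and -0.35 in library 6. Day 0 was not uniform either, since its library 3 stood at 0.84 and its library 2 at -0.43. Without libraries 5 and 6, 37 of 42 were lower and 1 higher (median -1.70). With the lymphocyte covariate none was lower, and with the acinar covariate 1 was lower and 5 were higher.

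Single members show the same division. Slfn1, a Schlafen gene, had 230.0, 195, 363, 222 and 284 FPKM at day 0, 18.9, 31.3, 34.5 and 31.4 FPKM in day 1 libraries 1 to 4, and 247 and 109.9 FPKM in libraries 5 and 6. For Oas1a, an RNA-sensing synthetase, the values were 178, 138, 237, 153 and 196 at day 0, 31.8, 34.1, 42.8 and 39.2 in libraries 1 to 4, and 144 and 99.7 in libraries 5 and 6. Day 1 library 5 thus had both genes within the range of day 0. Slfn4 was the gene of the list whose day 1 libraries, library 5 included (325 FPKM), were all lower than every day 0 library (496 to 1320.0 FPKM). The ubiquitin-like modifier Isg15 and the master regulator Irf7, named after their values were seen, had log2 fold changes of -2.21 and -1.91. Without libraries 5 and 6 these were -3.34 and -2.89. The interferon response element, GAAA and GAAA with 2 bases between them, was found, on either strand, in 22 of 41 promoters of the list (53.7%) and in 3.44% of the promoters of all genes. TTTGAA together with CCAAT, the pair of elements of many G2 and M phase genes, was found in 20 of 29 promoters of the mitosis list (69%) and in 6.95% of all, and the sterol element, ATCAC directly followed by CCCAC, in none of the 19 promoters of the cholesterol list and in 0.0913% of all.

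Matrix proteins and proteases were mostly lower. 17 of 28 fell and 2 rose, with a median log2 fold change of -1.04. Besides Spp1, Mmp8, Vcan and Fn1, the sheddase Adam8 fell from 126 ± 27.9 to 16.2 ± 1.07 FPKM and the TGF-beta-induced adhesion protein Tgfbi from 1776 ± 176 to 441 ± 72.995 FPKM. The metalloproteinase inhibitors moved apart, Timp1 at -2.23 and Timp2 at 1.66, both named after their values were seen. The other member that rose, Sparc (2.65, likewise), is abundant in fibroblasts, whose marker Col3a1 rose from 5.88 ± 2.002 to 72.1 ± 52.4 FPKM in the same libraries. Of 19 growth factors 9 were higher and 1 lower (47.4% and 5.26%, against 43.0% and 19.8% of all genes). After quantile normalization 5 were higher and 5 lower. Apart from Igf1, Gas6, the ligand that bridges dying cells to phagocyte receptors, rose from 29.4 ± 5.47 to 112 ± 44.8 FPKM and Vegfb from 1.78 ± 0.762 to 7.27 ± 2.24 FPKM. Vegfa, the main factor of vessel growth, was at 2.22 ± 0.896 and 1.78 ± 1.10 FPKM and was not called (adjusted p = 0.37).

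Receptors for uptake moved in both directions. In the scavenger and efferocytosis list 14 of 27 were higher and 8 lower (51.9% and 29.6%, against 43.0% and 19.8% of all genes). Under median-ratio scaling 10 were higher and 8 lower. Msr1, the class A scavenger receptor, fell from 88.6 ± 8.03 to 17.4 ± 4.02 FPKM, the oxidized lipoprotein receptor Olr1 from 5.99 ± 1.79 to 0.920 ± 0.378 FPKM and the integrin chain Itgav from 20.9 ± 2.44 to 8.45 ± 1.26 FPKM. Stab1, a scavenger receptor of resident cells, rose from 147 ± 13.3 to 345 ± 156 FPKM, Mertk, the apoptotic cell receptor that binds Gas6, from 17.6 ± 2.51 to 26.7 ± 4.25 FPKM and Marco from 1.74 ± 1.63 to 16.9 ± 13.7 FPKM. Mertk was no longer called without any 1 of day 0 libraries 1, 4 or 5 or day 1 libraries 1, 4 or 6 (adjusted p 0.0575 to 0.0874). Among Fc receptors the activating, high-affinity Fcgr1 fell from 571 ± 62.3 to 129 ± 67.3 FPKM and Fcgr4 from 227 ± 35.8 to 102 ± 45.3 FPKM, while the inhibitory Fcgr2b and the recycling receptor Fcgrt rose from 106 ± 11.8 to 216 ± 41.5 FPKM and from 50.9 ± 8.07 to 216 ± 68.8 FPKM. Fcgr2b is also expressed by B cells, and their part in its increase was not tested. Of 20 complement genes 9 were higher and 4 lower (45% and 20%, close to the 43.0% and 19.8% of all genes). C1qa, a chain of the initiating complex, rose from 592 ± 211 to 1002 ± 261 FPKM with overlapping ranges. It was not called under median-ratio scaling (adjusted p = 0.0937). The anaphylatoxin receptor C5ar1 fell from 276 ± 32.9 to 103 ± 26.7 FPKM. The complement receptor chain Itgam fell from 632 ± 89.6 to 212 ± 27.5 FPKM.

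Lipid genes moved in both directions. Of the list for lipid-associated macrophages 9 of 20 were lower and 3 higher. Its receptor Trem2 was at 157 ± 47.3 FPKM at day 0 and 186 ± 56.02 at day 1 and was not called (adjusted p = 0.49), while Apoe, apolipoprotein E, rose from 2353 ± 815 to 5389.8 ± 1542 FPKM with overlapping ranges. In the list for cholesterol efflux and the LXR factors 6 of 12 genes were higher and 2 lower. These shares, 50% and 16.7%, were close to the 43.0% and 19.8% of all genes. The exporters Abca1 (25.02 ± 6.40 and 68.5 ± 22.6 FPKM) and Abcg1 (23.8 ± 6.95 and 49.9 ± 11.5 FPKM) rose. So did the desaturase Scd1 (2.85 ± 1.58 and 25.7 ± 13.4 FPKM) and Mylip, a ubiquitin ligase of the sterol response (1.08). Nr1h3, the LXR alpha factor that controls efflux, fell (-0.92). Cholesterol synthesis and uptake genes were lower in 8 and higher in 1 of 23, and lower in 3 and higher in 2 without day 1 libraries 5 and 6. Among eicosanoid genes the phospholipase Pla2g4a, which releases arachidonic acid, fell from 29.1 ± 4.25 to 5.55 ± 4.52 FPKM, and Ltc4s, which makes leukotriene C4, rose from 36.3 ± 11.4 to 132 ± 44.6 FPKM. Lysosomal genes were divided, 8 higher and 10 lower of 34, and of the 12 cathepsins 5 were lower. Ctsl and Ctsd fell from 375 ± 62.6 to 129.9 ± 38.9 FPKM and from 3303 ± 726 to 1910.2 ± 476 FPKM, Ctsf rose from 0.156 ± 0.0528 to 4.49 ± 2.35 FPKM, and the abundant Ctsb was not called (adjusted p = 0.72).

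Iron genes moved in both directions and redox genes mostly down. Besides Slc39a14 and Lcn2, the phagosomal metal transporter Slc11a1 fell from 119 ± 17.96 to 54.8 ± 6.71 FPKM, and Trf, transferrin, rose from 79.2 ± 5.72 to 319 ± 98.4 FPKM, with 727 ± 115 FPKM in NC. Fth1, ferritin heavy chain, fell from 3345 ± 798 to 2603 ± 499.7 FPKM (log2 fold change -0.36 ± 0.15, adjusted p = 0.046). Fth1 was no longer called without any 1 of day 0 libraries 1, 4 or 5 or day 1 libraries 2, 3 or 5 (adjusted p 0.0534 to 0.196). In the iron list as a whole 7 were higher and 7 lower of 22. Targets of NRF2, the oxidant-responsive factor, were lower in 8 and higher in 1 of 13, among them the glutathione reductase Gsr (55.04 ± 12.3 and 19.1 ± 13.4 FPKM), the pentose phosphate enzyme Pgd (228 ± 13.96 and 101 ± 8.45 FPKM) and the sulfiredoxin Srxn1 (10.3 ± 1.05 and 3.96 ± 0.599 FPKM).

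Among 33 macrophage transcription factors 7 were higher and 9 lower. Spi1, which encodes the lineage factor PU.1, fell from 297 ± 25.1 to 179 ± 25.4 FPKM. Irf5, which promotes inflammatory cytokines, fell from 56.3 ± 4.55 to 34.2 ± 5.19 FPKM. Irf4, which acts in alternatively activated macrophages and equally in plasma, B and dendritic cells, had 1.63, 2.41, 1.29, 2.18 and 1.75 FPKM at day 0 and from 11.8 to 25.96 (median 15.4) at day 1 (log2 fold change 2.66 ± 0.21, adjusted p = 1.9e-10). Batf3, a dendritic cell factor, rose from 10.6 ± 1.90 to 20.4 ± 3.19 FPKM, and Id1, an inhibitor of basic helix-loop-helix factors, fell from 4.20 ± 1.07 to 1.16 ± 0.429 FPKM. Myc was at 11.8 ± 2.56 and 17.1 ± 5.68 FPKM and was not called (adjusted p = 0.12).

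Side by side with the reference groups, the day 1 levels took different places. Timd4 had 66.8 ± 18.9 FPKM in NC (SD, n = 3) and 5.32 ± 0.995 FPKM at day 3 with PBS (SD, n = 4), and Lyve1 285 ± 81.7 and 15.1 ± 5.30 FPKM. Pltp was at 632 ± 37.8 FPKM in NC and 350.1 ± 58.6 FPKM at day 3, around its day 1 mean. Arg1 had 6.31 ± 8.92 FPKM in NC and 15.3 ± 12.3 FPKM at day 3, and Chil3 65.5 ± 25.6 and 82.5 ± 42.3 FPKM. For both genes the day 1 mean, 23.4 ± 10.8 FPKM for Arg1, lay between day 0 and both references. Spp1 had 11.2 ± 3.32 FPKM in NC and 38.8 ± 10.8 FPKM at day 3, both below the lowest day 1 library. Among the lists that moved together, H2-Aa had 4809 ± 527 FPKM in NC and 3368 ± 686 FPKM at day 3, both above its day 1 mean, and Stmn1 had 48.8 ± 3.23 and 63.3 ± 14.7 FPKM. Hspa5 had 302 ± 27.04 FPKM in NC and 332 ± 70.1 FPKM at day 3, and Pkm 78.9 ± 17.5 and 86.2 ± 13.5 FPKM, all close to the day 1 means of 302 ± 22.8 and 86.8 ± 10.8 FPKM. Ly6c2 had 80.1 ± 34.99 FPKM in NC and 525 ± 241 FPKM at day 3. The acinar sum in NC was 6957 to 11262 FPKM and the B and plasma cell sum 462 to 561 FPKM. These are levels only, and no test was run on them here.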

How the data were processed

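Total RNA of sorted pancreatic macrophages was measured in 28 libraries, each built from 10 ng, per the labels' protocols. The authors deposited 1 table of FPKM for 25301 genes. Per the submitters' processing notes fastp and R 3.2.0 were used, while aligner, counter and genome build were not given in the sources used here. The low FPKM values of a gene were whole multiples of the value of 1 fragment for 100% of genes (tolerance 0.0001), which gave the depth of 37796000 to 41060490 fragments. Libraries of a group differed by more than counting noise.

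limma 3.58.1 (R 4.3.3) was fitted to log2(FPKM + 1) of genes that reached an FPKM of 1 in 3 or more libraries, with a mean for each of the 6 groups over all 28 libraries and a robust moderation of the variances with a trend. The two-sided p-values of D1 AP+PBS minus D0 were adjusted by Benjamini-Hochberg over 11960 genes, and genes under 0.05 were called. Fold changes are on the log2(FPKM + 1) scale, which understates those of low genes. The fit was tested on simulated data. Errors are SD for FPKM and SE for log2 fold changes, with n = 5 at day 0 and n = 6 at day 1 unless another n is given, and FPKM compare levels per transcript length. Groups are said not to overlap where every library of one lies above every library of the other.

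Members and gene lists were chosen with earlier results of these data known. Genes were named by rule: the 15 largest changes in each direction among genes whose mean FPKM reached 5 in either group, the 10 largest at 50 FPKM and outside the marker lists, up to 6 genes of each list by p and level, all of a list of 12 or fewer where it is described in full, the highest marker of each cell type, and a set of macrophage genes such as Arg1, Ly6c2 and Il10. Creld2, Cxcl10, Dnajc3, Ero1b, Hsp90b1, Irf7, Isg15, Sparc, Syvn1, Timp1 and Timp2 fall outside it and were chosen after their values were seen. A few further genes picked by it are not reported here. Promoters come from RefSeq (GRCm38.p6).

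Replicate numbers did not pair the libraries: the correlations of same-numbered libraries ran from -0.256 to 0.284, and nothing in the labels ties a number to an animal or day. The alternatives tried were another pseudocount, filter or scaling, a fit of the 11 libraries alone, plain moderation, marker covariates, the replicate block and leaving out each library. A voom fit of the recovered fragments and the omission of day 1 libraries 5 and 6 together were added after seeing the data.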

Additional observations from a re-analysis of the deposited data

Results flagged for a closer look

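For each of the 211 genes named, the highest and the lowest library of day 0 and of day 1 were compared with the nearest other library of their group. The gap, divided by the range of the group, passed the 95% critical value of Dixon for its group size in 30 of 422 groups, or 7.11%, where chance gives about 1 in 20.

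Day 1 library 5 was the library in 10 of these. It was the highest of day 1 for Nos2 (gap over range 0.944, at 2.56 FPKM), Vcan (0.769), Tlr1 (0.751), Cd86 (0.658), Ccl5 (0.644), Acod1 (0.632) and Mmp8 (0.627), and the lowest for Cd209a (0.675, at 11.7 FPKM), Fh1 (0.643) and Jund (0.628). Nos2 and Acod1 are induced in inflammatory macrophages, and Vcan is a monocyte gene. The T and NK cell marker sum was also highest in library 5 (399 FPKM), and the source of its Ccl5 was not tested. No such gap was found in day 1 library 6.

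Day 0 library 3 was the library in 11. It was the lowest of day 0 for 4 genes of lymphocytes, Lck (0.867), Gimap4 (0.847), Ptprcap (0.831) and Gimap6 (0.785), for the ribosomal protein genes Rplp1 (0.860) and Rps4x (0.756), and for Myc (0.829), Tgfb1 (0.788) and Mdh2 (0.744). It was the highest for Acod1 (0.780, at 10.8 FPKM) and Slfn4 (0.766, at 1320.0 FPKM).

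Day 0 library 1 was the highest of its group for Olr1 (0.807), Pltp (0.796), Fth1 (0.787), Trem2 (0.738) and Ctsd (0.725), genes of lipid, iron and lysosome handling, and the lowest for Hp (0.787) and Xbp1 (0.747). Day 0 library 2 was the lowest for Fh1 (0.743) and Ly6c2 (0.723, at 953 FPKM).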

How the results depend on the processing

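Of the 211 genes named, 192 were called, and 7 of these lost the call when 1 library was left out, as given beside each. Without 1 library 7027 to 7543 genes were called, 4767 to 5206 higher and 2176 to 2404 lower. Replicate numbers as a block gave 7690 calls (5314 higher, 2376 lower), voom on the recovered fragments 7516, and no filter 7976 of 25301. With a filter at FPKM 5 the higher calls were 3314, of 8651 genes tested. Quantile normalization gave 2835 higher and 3666 lower, and median-ratio scaling 3808 lower. They ended 4 and 6 calls of named genes. Neither turned the direction of a named gene called before or after the scaling. A change of sign in a gene called in neither fit was not counted, here or below. The acinar covariate gave 4999 calls, 3168 of them higher, and the lymphocyte covariate 4869, 1988 of them higher. The acinar covariate ended 26 calls of named genes, those of Ccr2, Col3a1, Ctsd, Ctss, Cxcr2, Ero1b, F13a1, Fcgr4, Fth1, Havcr2, Ifitm3, Il10, Il18, Irf7, Isg15, Jchain, Ly6c2, Lyve1, Nr1h3, Oas1a, Oaz1, Pcna, Reg2, Slfn1, Sparc and Stab1, and turned none. The lymphocyte covariate ended 47 calls, those of Arg2, C5ar1, Ccl12, Ccl5, Ccl7, Ccr7, Cd79a, Cdkn1a, Chil3, Ctsl, Dmbt1, Egr3, Fcgr1, Fh1, Gimap4, Gimap6, H2-DMb2, Havcr2, Hspa8, Idh3g, Il10, Irf5, Kdm3a, Ly6c2, Lyve1, Marco, Mcm7, Ms4a1, Msrb1, Mzb1, Nr1h3, Oas1a, Oaz1, Pclaf, Pnliprp1, Ptprcap, Reg1, Reg2, Reg3b, Rplp1, Rps4x, Rrm2, Slc11a1, Slfn1, Slfn4, Spi1 and Spp1, and turned 23 log2 fold changes: Ctsb to 1.37, Cd68 0.34, Ctss 0.79, Il18 0.70, Fcgr4 0.55, Ctsd 0.54, Ifitm3 0.37, Fth1 0.25, Isg15 0.21, F13a1 0.21, Irf7 0.19, Ccr2 0.18, Lgals9 0.0050, Lck -0.0527, Sparc -0.11, Pou2af1 -0.17, Ero1b -0.19, Phgdh -0.28, Col3a1 -0.33, Jchain -0.36, Scd1 -0.45, Pcna -0.63 and Myc -1.35. Of the genes with a call ended or a sign turned, Cd79a, Ms4a1, Mzb1, Lck, Pou2af1 and Jchain make up this covariate. Their outcome was thus built into the fit and is no result about them. The cause in the other genes was not tested. Genes with low FPKM rest on few fragments, and the log2(FPKM + 1) scale shrinks their changes.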
